A study of Mus musculus with 89 samples.

Results

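The 7 genes described here are Lin28a, Lin28b, Trim71, Hmga2, Igf2bp1, Igf2bp2 and Igf2bp3, the genes of the Lin28 and let-7 axis. They were taken by gene symbol from the 54146 gene rows of the table, and each symbol matched 1 row. The rule uses names and no measured value, but the set was chosen with earlier results of these data known. All 7 passed the filter on low counts in every comparison.

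Lin28a and Lin28b encode RNA-binding proteins that hold back the maturation of let-7, a family of microRNAs whose precursors are made in many cell types and whose mature forms accumulate as cells differentiate. Mature let-7 pairs with sites in the 3′ untranslated region (UTR) of messenger RNAs and lowers their stability and translation. Its best known targets are Lin28a and Lin28b themselves, Trim71 (a ubiquitin ligase and mRNA repressor, the mammalian Lin41), Hmga2 (a chromatin architectural protein) and the Igf2bp genes (RNA-binding proteins that act on the stability and translation of mRNAs). In mouse embryonic stem cells (ESCs), Lin28a is among the genes that are low in naive cells and rise on the way to primed pluripotency.

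The RNA was poly-A selected from mouse ESCs, in 20 libraries. All cells carried a knockout of endogenous Esrrb and a doxycycline (Dox) inducible Esrrb transgene (EKOiE), and the EKOiE NrKO line had in addition deletions in the fourth exon of Nr5a2 on both alleles. With Dox (1 µg/ml) EKOiE cells are +E+N and EKOiE NrKO cells are -N. Without Dox for 2 days the same lines are -E and -E-N. Each state was cultured in FCS/LIF, which is serum with leukaemia inhibitory factor, with 2 libraries per state. Each was also cultured in 2i/LIF, with 3 libraries per state. The 2i/LIF medium holds LIF, the Mek inhibitor PD0325901 and the Gsk3 inhibitor CHIR99021. It also has another base medium, with supplements, insulin and albumin in place of serum. EKOiE NrKO cells are a clone, which the labels do not name (the supplementary methods describe RNA-seq of clone 4), so loss of Nr5a2 and other properties of that clone cannot be told apart. Likewise the medium and anything else that differed between the FCS/LIF and 2i/LIF experiments cannot be told apart. The labels do not say how replicates relate, and the study's legends describe them as independent experiments.

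The libraries held 36514172 to 45443379 counts in FCS/LIF and 26653035 to 32526534 in 2i/LIF. All replicates of a group differed by more than sampling noise. The ESC markers Pou5f1 and Sox2 were present in every library, at 760 to 1544 TPM and 80.7 to 235.9 TPM (transcripts per 1e6), whereas fibroblast markers summed to at most 7.44 TPM. Esrrb fell without Dox in FCS/LIF (log2 fold change -2.18 ± 0.13 SE in -E and -3.39 ± 0.14 in -E-N) and in 2i/LIF -E-N (-1.97 ± 0.16). In 2i/LIF -E it stood at 380 to 441 CPM (counts per 1e6, TMM-scaled) against 515 to 608 in +E+N, without overlap and not called (-0.46 ± 0.16, adjusted p = 0.116, edgeR). Nr5a2 in -N was -0.55 ± 0.08 in FCS/LIF (adjusted p = 0.0212) and -0.05 ± 0.21 in 2i/LIF (adjusted p = 0.924), neither of them called. Counts per gene include transcripts of disrupted alleles, so they do not check the loss of either protein. The paper gives other evidence for the losses. By its account, qPCR of the deleted Nr5a2 region found no wild-type transcript in the knockout clones. It also reports that Esrrb binding in 2i/LIF was ablated after 2 days without Dox.

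The let-7 family is defined by the start of its mature sequences. RefSeq (GRCm38.p6) lists the 5p form of 11 of the 12 let-7 family genes, which give 9 distinct sequences of 22 bases. All 11 share 1 seed, bases 2 to 8, printed in capitals.
let-7a: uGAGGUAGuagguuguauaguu
let-7b: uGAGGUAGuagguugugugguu
let-7c: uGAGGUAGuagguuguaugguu
let-7d: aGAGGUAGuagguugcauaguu
let-7e: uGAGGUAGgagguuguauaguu
let-7f: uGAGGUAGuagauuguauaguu
let-7g: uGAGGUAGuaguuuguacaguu
let-7i: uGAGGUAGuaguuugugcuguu
miR-98: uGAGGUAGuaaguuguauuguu

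The reverse complement of the seed in DNA letters is CTACCTC, read on the mRNA strand only. It was found in the longest annotated 3′ UTR (GENCODE vM21) of 7 of 7 genes, 20 times in all, and in 9.02% of the 21006 genes with an annotated 3′ UTR. In 13 of the 20 matches it was followed by A, the 8-base form, which 7 of 7 genes and 3.06% of all genes hold. Since long UTRs hold more matches by length alone, the density was also taken: 0.472 (Igf2bp3) to 1.33 (Hmga2) matches per kb in the 7 genes, against 0.0699 over all 3′ UTRs. Of 3′ UTRs at least as long as the member's own, 18.9% (Igf2bp2) to 45.7% (Igf2bp1) hold a match. The 7 genes are among the best known let-7 targets, so these shares describe them and are no test of the set.

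The match nearest to the stop codon is shown for each gene because the match is the feature that ties all 7 transcripts to let-7. Capitals mark the 8 bases CTACCTCA, and the 16 bases before them are in lower case.
Lin28a: tgcacagcctgttgaaCTACCTCA
Lin28b: cacccgggcgggaagtCTACCTCA
Trim71: caacattgcctaagtcCTACCTCA
Hmga2: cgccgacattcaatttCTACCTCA
Igf2bp1: tgctgtgcgaagtaaaCTACCTCA
Igf2bp2: aacacacaaataaaagCTACCTCA
Igf2bp3: gtgcatttttactcaaCTACCTCA

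These stretches lie on the minus strand of mm10, in the same order at chr4:134005189-134005212, chr10:45381022-45381045, chr9:114512472-114512495, chr10:120364224-120364247, chr11:95961778-95961801, chr16:22059473-22059496 and chr6:49086787-49086810. All are exonic, in the 3′ UTR. Lin28a has 2 matches, both of the 8-base form, in a 3′ UTR of 2775 bases. Trim71 has 4 in 5512 bases, all of the 8-base form and in a close pair near the start and another further on. Lin28b and Hmga2 have 4 each, in 4445 and 3014 bases, of which only the match closest to the stop codon is of the 8-base form. Igf2bp1 has 4 in 6337 bases, 3 of them of the 8-base form, and Igf2bp2 and Igf2bp3 have 1 each. A match is a sequence feature and not a measurement of binding.

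**Figure D1:**
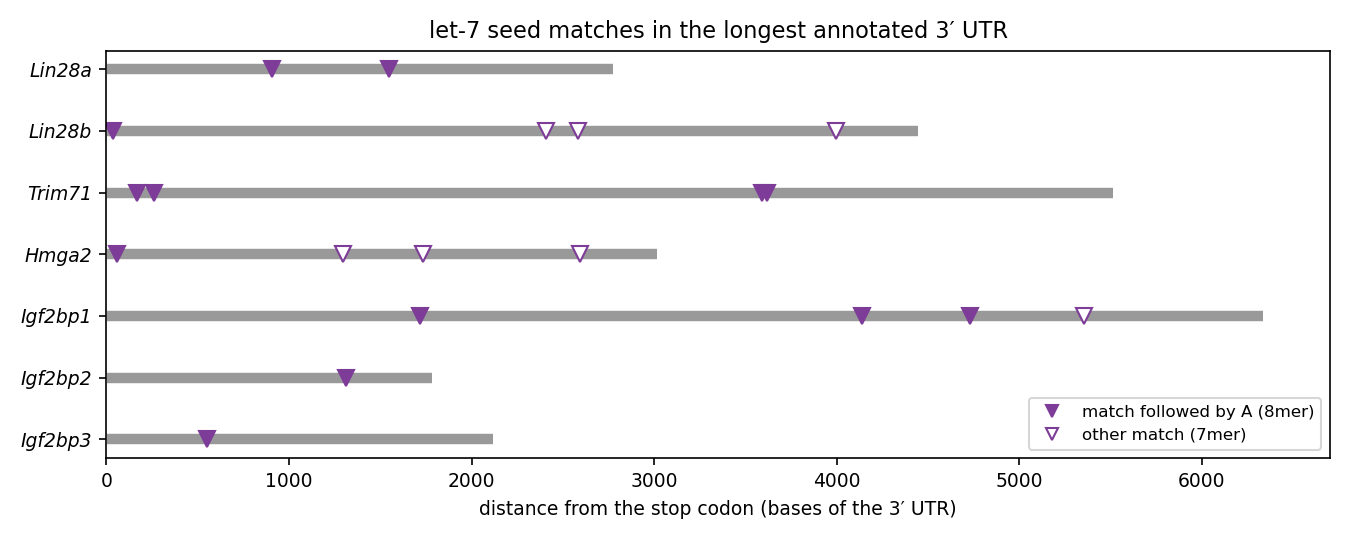
Position of the let-7 seed matches in the longest annotated 3′ UTR of each gene, drawn to scale in bases from the stop codon (grey bars, the UTR). Filled triangles are matches of the 8-base form and open triangles the other matches. The first match of Lin28b and of Hmga2 lies within the first 60 bases, and Igf2bp2 and Igf2bp3 carry 1 match each.

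The let-7 genes themselves gave no signal. All 12 let-7 family gene rows held 0 counts in all 20 libraries. Poly-A libraries read neither the mature microRNA nor the excised hairpin, so let-7 activity was not measured here.

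Levels between genes were compared in TPM, which divides by transcript length. In FCS/LIF +E+N the order was Igf2bp1 (163 ± 3.09 TPM, SD, n = 2), Lin28a (160 ± 18.3), Trim71 (50.6 ± 1.78), Igf2bp2 (22.9 ± 1.80), Igf2bp3 (18.0 ± 3.71), Lin28b (9.14 ± 0.0424) and Hmga2 (2.66 ± 0.0990). Igf2bp1 and Lin28a overlapped and the other neighbours did not. In 2i/LIF +E+N Igf2bp1 was again first (106 ± 2.43 TPM, n = 3), while Lin28a had dropped to the fifth place (19.6 ± 5.29) and Lin28b to the last (1.06 ± 0.185). Igf2bp2, Igf2bp3 and Trim71 stood between 27.2 and 39.3 TPM there and overlapped each other. In 2i/LIF -E-N Lin28a (98.8 ± 3.92 TPM) stood within the range of Igf2bp1 (83.6 to 123).

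The first question was how these genes differ between the media before any loss. In +E+N cells 6 of the 7 genes were called, 3 lower and 3 higher in 2i/LIF, where 34.7% of the 16147 genes tested were called, 17.5% lower and 17.2% higher. A call here means an adjusted p under 0.01 in edgeR's quasi-likelihood test, with a fold change over 1.5 in either direction, and all levels below are CPM. Lin28a stood at 490 and 394 CPM in FCS/LIF and at 75.5, 44.4 and 48.0 CPM in 2i/LIF. The ranges lie far apart (log2 fold change -2.98 ± 0.20 SE, adjusted p = 1.94e-09). Lin28b, its paralogue, showed a difference of the same size from a level about an order of magnitude lower in CPM, with 40.7 and 38.5 CPM in FCS/LIF against 5.17, 4.90 and 3.55 in 2i/LIF (-3.12 ± 0.14, adjusted p = 1.47e-11). Trim71 was lower in 2i/LIF too (-0.73 ± 0.13, adjusted p = 8.66e-05), with 425 and 384 CPM against 278, 240 and 213.

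Hmga2 and 2 of the 3 Igf2bp genes stood the other way. Hmga2 rose from 8.05 and 8.02 CPM in FCS/LIF to 32.4, 29.7 and 31.2 CPM in 2i/LIF (1.95 ± 0.37, adjusted p = 0.000222). Igf2bp3 was higher at 128, 115 and 100.0 CPM against 65.2 and 48.0 (1.02 ± 0.16, adjusted p = 2.76e-05). Igf2bp2 was higher by less (0.62 ± 0.16, adjusted p = 0.00292) and lost its call without replicate 2 of either +E+N group (log2 values over all refits 0.49 to 0.75), without the count filter and on TPM values. Igf2bp1 was not called on counts (-0.18 ± 0.10, adjusted p = 0.124). On TPM it was, at -0.62 with limma, since its TPM of 161 and 165 in FCS/LIF and of 103 to 108 in 2i/LIF lie apart while its CPM do not separate by as much. Of the 5 let-7 target genes beside the Lin28 pair, 1 was thus called lower and 3 were called higher in the medium where the Lin28 genes were low.

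**Figure D2:**
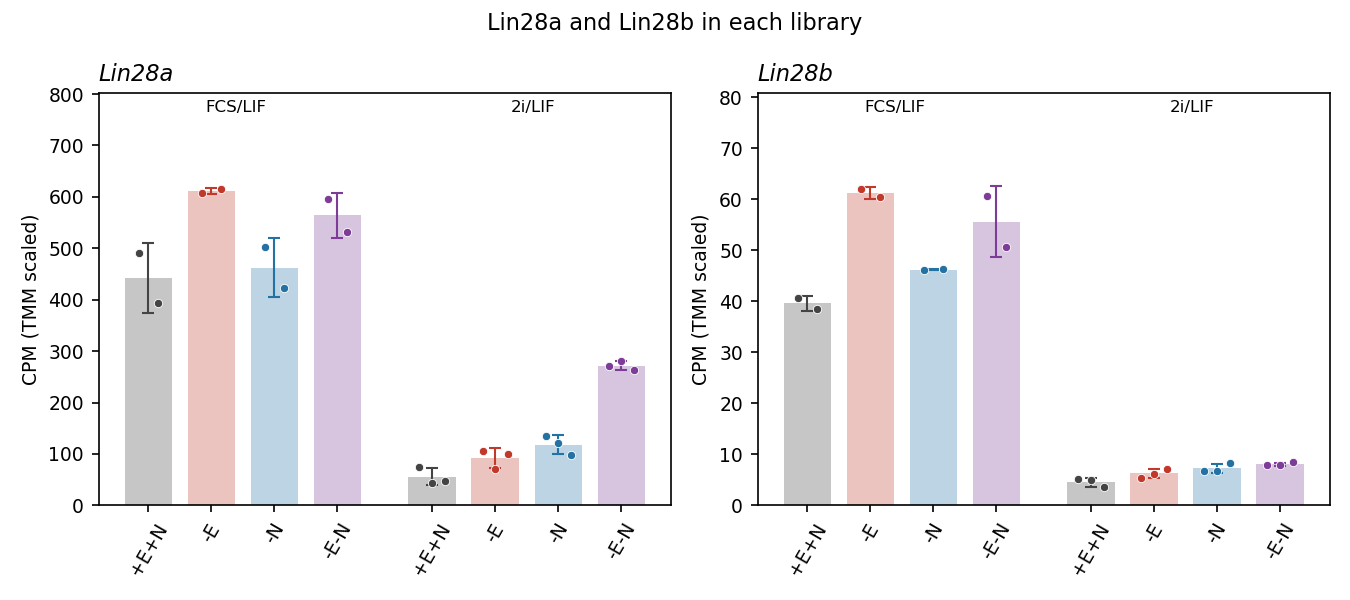
Levels of Lin28a and Lin28b in CPM (linear axis from 0) in the 4 states of each medium; points are libraries, bars the mean and whiskers the SD (n = 2 in FCS/LIF, n = 3 in 2i/LIF). Lin28a in 2i/LIF -E-N, at 264 to 281 CPM, lies above the other 2i/LIF states and below every FCS/LIF library, whereas Lin28b stays under 8.5 CPM in 2i/LIF.

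The second question was what loss of Esrrb, Nr5a2 or both did to Lin28a and Lin28b in 2i/LIF, the medium in which both were low. The comparisons of -E, -N and -E-N with +E+N share the +E+N libraries and are given side by side. After loss of both factors, 3 of the 7 genes were called, all of them higher: Lin28a, Lin28b and Hmga2. Of the 14355 genes tested in 2i/LIF, 18.6% were called in that comparison and 9.06% were called higher.

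The +E+N libraries had 75.5, 44.4 and 48.0 CPM of Lin28a. Loss of Esrrb gave 107, 70.3 and 99.2 CPM, loss of Nr5a2 gave 135, 122 and 97.5 CPM, and loss of both gave 271, 281 and 264 CPM. The -E-N libraries were above all others of the medium, the -N libraries were above +E+N, and -E overlapped with both +E+N and -N. Lin28a rose 4.91-fold in -E-N (log2 fold change 2.29 ± 0.20 SE, adjusted p = 3.48e-06). In -N it rose 2.10-fold (1.07 ± 0.20, adjusted p = 0.00465), and was the only one of the 7 genes called there, against 3.65% of all genes. That call was lost without -N replicate 1 or 2 or +E+N replicate 2 or 3, where the log2 value stayed within 0.93 and 1.35, and with the 2 states fitted alone (adjusted p = 0.0151). The larger rise in -E-N was called in all 21 refits, between 2.16 and 2.57.

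In 2i/LIF -E none of the 7 genes was called by edgeR's quasi-likelihood test, with 1.55% of all genes called. DESeq2 called 1, and 3 of the 7 had an unadjusted p under 0.05, as did 20.3% of all genes. Lin28a in -E was at 0.72 ± 0.20 (adjusted p = 0.0489), and blocked by replicate number it was called at 0.74 (adjusted p = 0.00411). Without +E+N replicate 1, the highest of its group, it was called too, at 1.00. Loss of Esrrb on top of Nr5a2 loss (-E-N against -N, 6.76% of all genes called) raised Lin28a by 1.22 ± 0.19 (adjusted p = 0.00116). Loss of Nr5a2 on top of Esrrb loss (-E-N against -E, 13.1% called) raised it by 1.57 ± 0.20 (adjusted p = 9.72e-05). In each of these, Lin28a was the only one of the 7 genes called, and with the replicate block Hmga2 was called too. The test of whether the double loss exceeds the sum of the single losses on the log2 scale gave 0.50 ± 0.27 for Lin28a (adjusted p = 0.460) and called none of the 7 genes (0.307% of all genes, 0 of 7 and 13.7% of all genes at an unadjusted p under 0.05, and 0 of 7 with DESeq2).

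Lin28b moved over a narrower range in 2i/LIF. It was at 5.17, 4.90 and 3.55 CPM in +E+N, 5.39, 6.22 and 7.23 in -E, 6.82, 6.71 and 8.23 with Nr5a2 alone lost, and 7.92, 7.91 and 8.45 in -E-N. Each loss state lay above +E+N without overlap, while -E-N overlapped with -N and -N with -E. The rise in -E-N was 1.80-fold (0.85 ± 0.17, adjusted p = 0.00166) and was not called on TPM values, at 0.46 on log2(TPM + 1) and 0.74 on log2(TPM + 0.1). The values in -N (0.67 ± 0.17, adjusted p = 0.0249) and -E (0.47 ± 0.17, adjusted p = 0.138) were not called. These levels rest on 102 to 250 counts per library.

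Markers of other states also differed between the 2i/LIF groups. The 6 formative and primed markers (Fgf5, Otx2, Pou3f1, Dnmt3b, Dnmt3a and Lef1) summed to 39.9 to 45.1 TPM in +E+N, 53.7 to 64.8 in -E, 63.2 to 70.0 in -N and 83.2 to 105 in -E-N. The sum was carried by Dnmt3b, and the list did not move as a whole. From +E+N to -E-N, Dnmt3b went from 27.4 to 34.5 TPM up to 65.4 to 80.8 and Lef1 from 0.24 to 0.36 TPM up to 8.48 to 10.3, both called higher. Otx2 was called lower, from 0.98 to 1.31 TPM down to 0 to 0.06, Dnmt3a and Pou3f1 were not called, and Fgf5 was too low to test. The 8 ESC markers summed to 2514 to 2782 TPM in +E+N and 1287 to 1727 in -E-N. The 5 trophectoderm markers summed to 33.0 to 43.0 TPM in +E+N and 63.4 to 90.3 in -E-N. Of these 5, Tfap2c was the most abundant and was not called. Cdx2 (0.38 to 1.41 TPM up to 22.9 to 30.6) and Gata3 were called higher, and Eomes was called lower (-1.94 ± 0.31). Elf5 was too low to test. The 5 primitive endoderm markers summed to 1.52 to 2.50 TPM in +E+N and 5.50 to 7.64 in -E-N, and they did not move as a whole either. Foxa2 (0.31 to 0.67 TPM up to 3.26 to 4.96) and Pdgfra were called higher, and Gata4 was called lower. Sox17 was not called and Gata6 was too low to test. Fibroblast markers summed to at most 6.21 TPM, with Col1a1, Col1a2 and Col3a1 each under 1 TPM in all libraries. Pdgfrb reached 4.82 TPM (-E) and Thy1 2.12 TPM (+E+N). From +E+N to -E-N, Col1a2 was called higher (3.06 ± 0.72) and Thy1 was called lower (-2.04 ± 0.46). Col1a1 and Pdgfrb were not called and Col3a1 was too low to test. The part of these shifts in the rise of Lin28a was not tested, and in bulk RNA more cells with a transcript cannot be told from more transcript per cell.

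In FCS/LIF both Lin28 genes started from higher levels. Lin28a was at 490 and 394 CPM with both factors, 608 and 616 without Esrrb, 503 and 422 without Nr5a2, and 595 and 533 without either. The -E and -E-N libraries lay above +E+N and above -N, which overlapped with each other. None of this was called, with 0.45 ± 0.11 in -E (adjusted p = 0.0227) and 0.33 ± 0.11 in -E-N (adjusted p = 0.0356). Without +E+N replicate 1, the higher of the pair, -E reached 0.62 and was called. The formative and primed markers summed to 305 to 315 TPM in +E+N, 445 to 448 in -E, 344 to 350 in -N and 335 to 373 in -E-N there. In -E Fgf5, Pou3f1 and Lef1 were called higher and the other formative and primed markers were not called. In -E-N Fgf5 and Pou3f1 were called higher, Otx2 and Dnmt3a lower, and Dnmt3b and Lef1 were not called. Every ESC marker was called lower in -E-N, and all trophectoderm markers but Tfap2c were called higher. No primitive endoderm marker was called there, and all fibroblast markers but Thy1 were called higher, at no more than 1.26 TPM. The part of these shifts in the values of Lin28a was not tested.

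Lin28b in FCS/LIF was called in -E at 0.61 ± 0.08 (1.53-fold, adjusted p = 0.00143). It had 40.7 and 38.5 CPM in +E+N, 62.1 and 60.4 in -E, 46.2 and 46.3 with Nr5a2 alone lost, and 60.6 and 50.7 in -E-N. All loss states lay above +E+N. In -E-N the value was 0.47 ± 0.08 (adjusted p = 0.00180), past the p limit but under the 1.5-fold limit, which it passed on TPM values (0.60 on log2(TPM + 1), adjusted p = 0.00300, limma). The call in -E sits close to that limit and was lost without +E+N replicate 2 or without either -E replicate.

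The medium difference of the responses, coded 2i/LIF minus FCS/LIF in a fit of all 20 libraries and called at an adjusted p under 0.01, was tested directly. For the -E-N response 1 of the 7 genes was called, with 13.2% of all genes called. That gene was Lin28a, whose response was larger in 2i/LIF by 1.93 ± 0.28 on the log2 scale (adjusted p = 0.000112). It was called in all 27 refits, between 1.76 and 2.21. Lin28b differed by 0.34 ± 0.19 (adjusted p = 0.216). For the -E and the -N responses none of the 7 was called (1.06% and 0.743% of all genes), 2 of the 7 had an unadjusted p under 0.05 in each, against 17.6% and 15.3% of all genes, and DESeq2 called 1 for -E and 0 for -N. For -N, Lin28a differed by 1.01 ± 0.28 (adjusted p = 0.0600), with a call at 1.03 under the replicate block (adjusted p = 0.00393) and at 1.29 without 2i/LIF +E+N replicate 1. Despite its larger response, Lin28a in 2i/LIF -E-N (264 to 281 CPM) stayed under all FCS/LIF libraries (394 CPM and above).

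**Figure D3:**
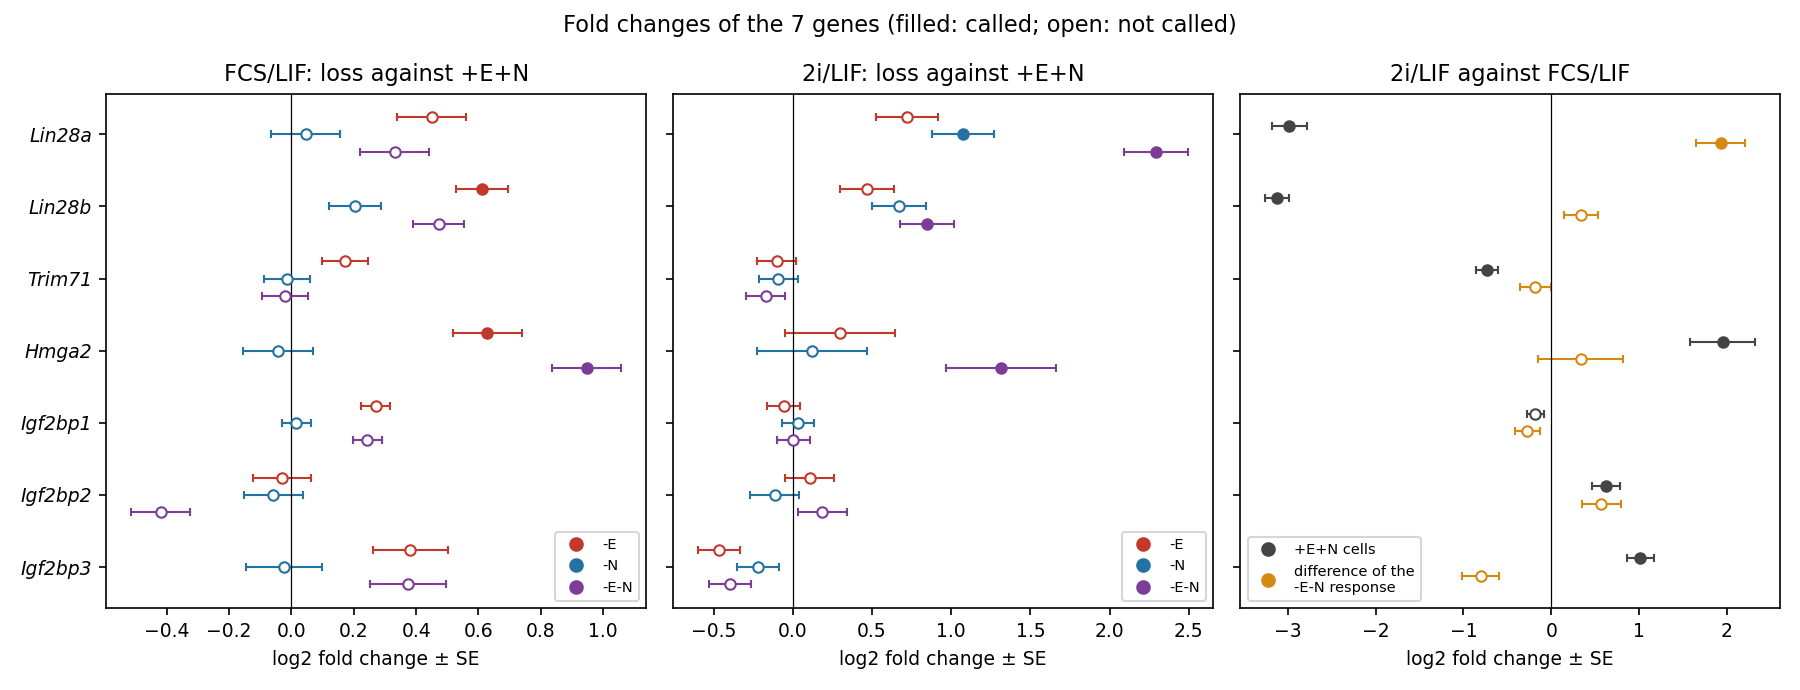
Log2 fold change ± SE of the 7 genes from edgeR: each loss state against +E+N in FCS/LIF (left) and 2i/LIF (middle), and, at right, 2i/LIF against FCS/LIF in +E+N cells with the medium difference of the -E-N response. Filled points were called, open points were not, and the 3 horizontal scales differ. Lin28a reaches 2.29 in 2i/LIF -E-N, Hmga2 is filled in -E-N of both media, and the Igf2bp genes and Trim71 have no filled point for any loss state.

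Among the 5 members beside the Lin28 pair, Hmga2 was the one called after loss of both factors in both media. In FCS/LIF it was at 8.05 and 8.02 CPM in +E+N, 11.7 and 13.4 in -E, 8.24 and 7.57 with Nr5a2 alone lost, and 15.2 and 16.2 in -E-N. The order was -E-N over -E over the other 2 states, which overlapped. Hmga2 rose 1.93-fold in -E-N (0.95 ± 0.11, adjusted p = 0.000206) and was the only one of the 7 genes called there, against 18.8% of the 15636 genes tested. It was called in 16 of 17 refits (0.88 to 1.09) and not in the fit of all 20 libraries, where both media share 1 estimate of the spread (0.97, adjusted p = 0.0638). In -E, where 2 of the 7 genes were called (Lin28b and Hmga2) and 5.76% of all genes, it rose 1.55-fold (0.63 ± 0.11, adjusted p = 0.00517), and 10 of 17 refits did not call it (0.53 to 0.73 over all 17). These were the fits on TPM, of all 20 libraries and of the 2 states alone, and those without any of the +E+N, -E or -E-N libraries.

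Loss of Esrrb in cells already without Nr5a2 (-E-N against -N, 10.1% of all genes called) raised Hmga2 by 0.99 ± 0.11 in FCS/LIF (adjusted p = 0.000347), the only call among the 7, again lost only in the fit of all 20 libraries (0.99, adjusted p = 0.0828). The reverse order (-E-N against -E, 5.05% called) gave 0.32 ± 0.11 for Hmga2 (adjusted p = 0.0662) and no call among the 7 by edgeR or DESeq2, with 3 at an unadjusted p under 0.05, against 35.4% of all genes. The test against additivity in FCS/LIF called none of the 7 (0.032% of all genes), 3 had an unadjusted p under 0.05, against 8.85% of all genes, and DESeq2 called 0. Nor did loss of Nr5a2 alone call any of the 7 in FCS/LIF (0.173% of all genes), where the values ran from -0.06 (Igf2bp2) to 0.20 (Lin28b), 1 of them at an unadjusted p under 0.05, against 16.3% of all genes, and DESeq2 called 0.

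In 2i/LIF Hmga2 was uneven between replicates. It had 32.4, 29.7 and 31.2 CPM in +E+N, 26.5, 38.1 and 50.2 in -E, 24.0, 36.7 and 41.2 with Nr5a2 alone lost, and 39.5, 66.7 and 124 in -E-N. The -E-N libraries lay above +E+N but overlapped with -E and -N, and replicate 3 was the highest of each loss state. In that -E-N replicate 3, Esrrb was also the lowest of the 3 (104 CPM against 171 and 161) and Nr5a2 too (20.9 CPM against 46.1 and 34.4), and the part of this was not tested. The rise in -E-N was 2.49-fold (1.32 ± 0.35, adjusted p = 0.00895), just inside the threshold. Without -E-N replicate 3 the log2 value was 0.78 and not called. The call was also lost without any of the +E+N libraries, -E replicate 2, -N replicate 2 or 3, or -E-N replicate 2 (1.29 to 1.40), on TPM values and with the 2 states alone. The values against -N (1.20 ± 0.35, adjusted p = 0.0295) and against -E (1.02 ± 0.34, adjusted p = 0.0388) were not called, and with the replicate block they were, at 1.12 (adjusted p = 0.00127) and 0.95 (adjusted p = 0.00222). Without -E-N replicate 1 they were called at 1.51 and 1.33. The medium difference of the -E-N response was 0.33 ± 0.49 (adjusted p = 0.668), within the spread between libraries.

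**Figure D4:**
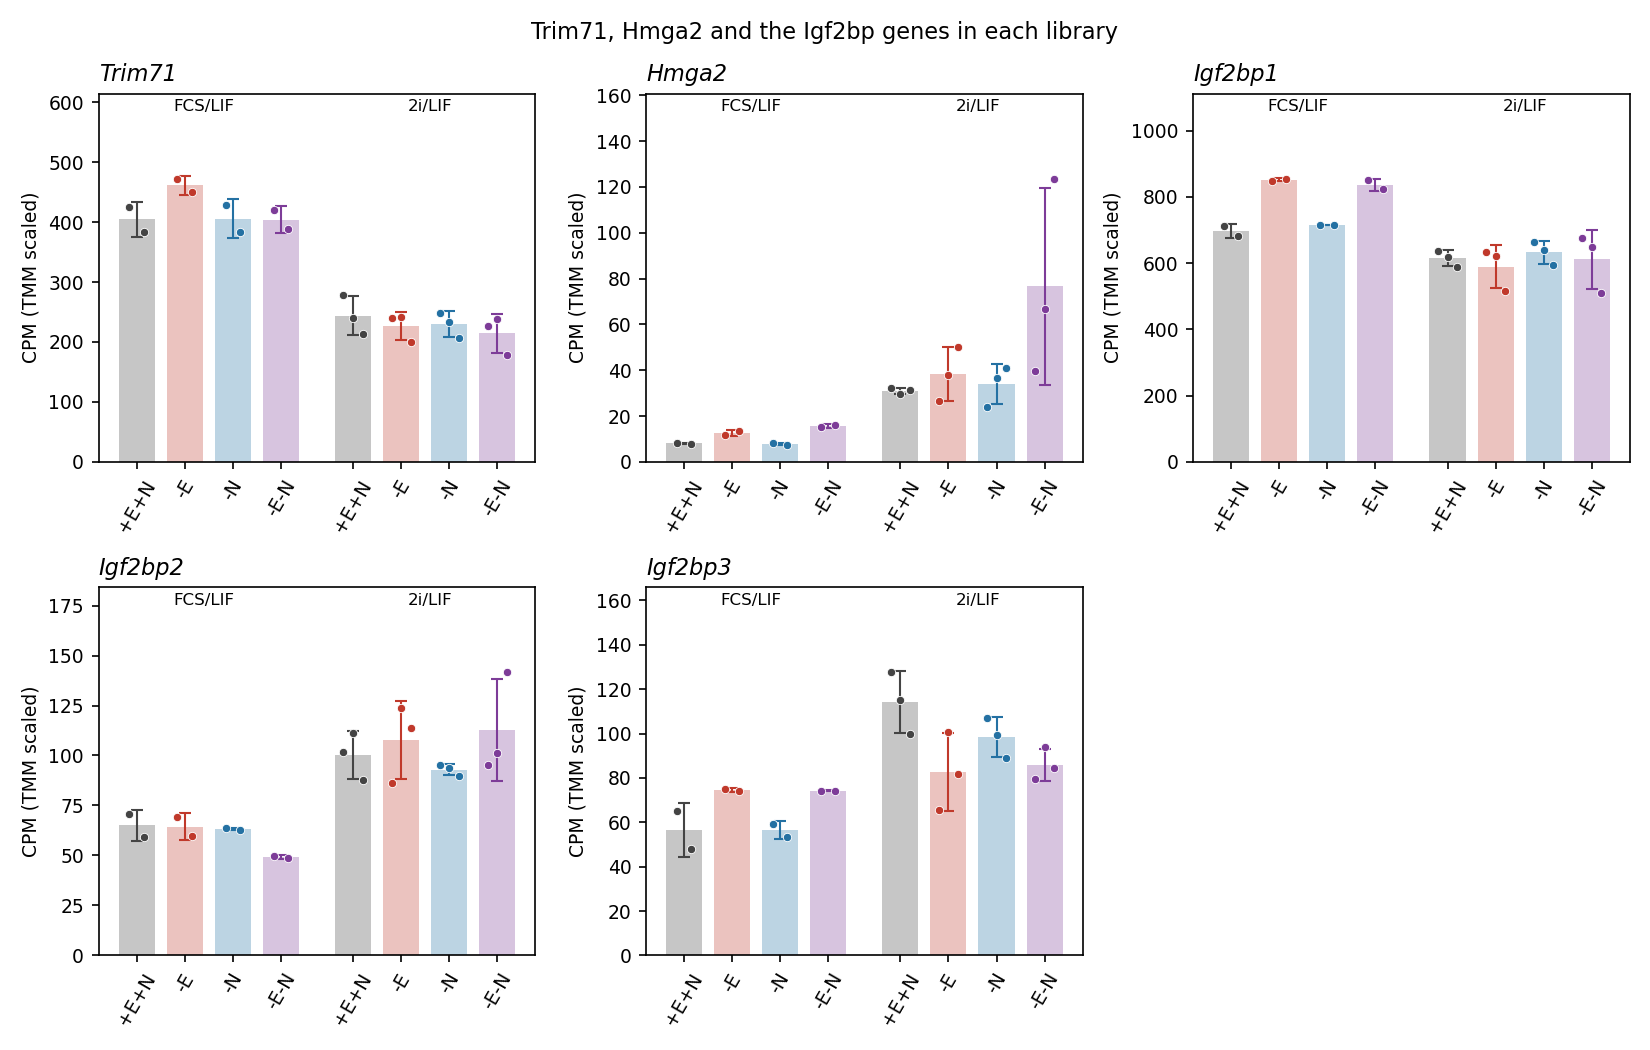
Levels of Trim71, Hmga2 and the Igf2bp genes in CPM (linear axes from 0) by state and medium; points are libraries, bars the mean and whiskers the SD (n = 2 in FCS/LIF, n = 3 in 2i/LIF). Hmga2 in 2i/LIF -E-N spreads from 39.5 to 124 CPM, and Trim71 in 2i/LIF stays between 178 and 278 CPM in all states.

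Trim71 was called in no loss state. In 2i/LIF its libraries ranged from 213 to 278 CPM in +E+N, 199 to 241 in -E, 206 to 249 in -N and 178 to 238 in -E-N, and all states overlapped. In FCS/LIF it had 425 and 384 CPM in +E+N, 473 and 450 in -E, 429 and 383 with Nr5a2 alone lost, and 420 and 388 in -E-N. Its fold changes against +E+N ran from -0.17 ± 0.12 (2i/LIF -E-N, adjusted p = 0.296) to 0.17 ± 0.07 (FCS/LIF -E, adjusted p = 0.142). With 4 let-7 matches of the 8-base form, Trim71 held the most such matches of the 7 genes. A relation between the number of matches and the fold changes was not tested.

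The 3 Igf2bp genes showed small values, and these differed in sign between members and media. Igf2bp1 in FCS/LIF was at 713 and 683 CPM in +E+N and at 849 and 856 in -E, 715 and 715 with Nr5a2 alone lost, and 850 and 824 in -E-N. Its -E and -E-N libraries lay above +E+N. Its values in -E (0.27 ± 0.05, adjusted p = 0.00490) and -E-N (0.24 ± 0.05, adjusted p = 0.00294) passed the p limit at about 1.2-fold, under the fold limit. With Nr5a2 alone lost, Igf2bp1 was at 0.02 ± 0.05 and not called. In 2i/LIF its states overlapped, between 510 and 675 CPM.

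Igf2bp2 in FCS/LIF had 70.6 and 59.4 CPM in +E+N, 69.2 and 59.7 in -E, 63.6 and 62.9 with Nr5a2 alone lost, and 49.9 and 48.5 in -E-N. Only -E-N stood apart from the rest, lower (-0.42 ± 0.09, adjusted p = 0.00642), and this too was under the fold limit. In 2i/LIF it ran from 86.1 to 142 CPM, and the 3 loss states overlapped with +E+N. Its -E-N value there was 0.19 ± 0.15 (adjusted p = 0.364), and the medium difference was 0.57 ± 0.22 (adjusted p = 0.0758).

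Igf2bp3 in FCS/LIF had 65.2 and 48.0 CPM in +E+N, 75.1 and 74.0 in -E, 59.2 and 53.5 with Nr5a2 alone lost, and 74.3 and 74.0 in -E-N. In 2i/LIF it had 128, 115 and 100.0 CPM in +E+N, 65.7, 100.5 and 81.9 in -E, 107, 99.5 and 89.1 with Nr5a2 alone lost, and 79.6, 93.8 and 84.3 in -E-N. The -E-N libraries thus lay above +E+N in FCS/LIF (0.37 ± 0.12, adjusted p = 0.0317) and below it in 2i/LIF (-0.40 ± 0.13, adjusted p = 0.0316), and neither was called. Without +E+N replicate 1 the FCS/LIF values were called, at 0.62 in -E and 0.62 in -E-N. The difference of the -E-N responses was -0.80 ± 0.21 (adjusted p = 0.0113), just outside the threshold. It was called in 8 of 27 refits (-1.04 to -0.59 over all 27), among them the replicate block, DESeq2 and the fits without FCS/LIF +E+N replicate 1, 2i/LIF +E+N replicate 3 or 2i/LIF -E replicate 1 or 2. For the -E response it was -0.87 ± 0.21 (adjusted p = 0.0327), and it was called in 4 of 27 refits, among them the replicate block (-0.88, adjusted p = 0.00532) and the fit without 2i/LIF -E replicate 2 (-1.03).

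The machinery that makes and uses let-7 was read from a list of 19 genes. After loss of both factors 2 of the 19 were called in FCS/LIF and 2 in 2i/LIF, against 18.8% and 18.6% of all genes, with list medians of -0.01 and 0.08 against 0.00 and 0.01 over all genes. Trim25, an RNA-binding ubiquitin ligase that acts with Lin28a on the let-7 precursor, fell in both media, by 0.75 ± 0.05 on the log2 scale in FCS/LIF (adjusted p = 1.33e-05) and by 0.73 ± 0.09 in 2i/LIF (adjusted p = 5.68e-05). Its libraries dropped from 180 and 190 CPM to 110 and 113 in FCS/LIF, and from 172, 176 and 165 to 110, 111 and 86.1 in 2i/LIF. Ago2, the slicer Argonaute that carries mature microRNAs, fell in 2i/LIF from 371, 349 and 345 CPM to 164, 158 and 123 (-1.24 ± 0.11, adjusted p = 5.13e-06). The other called gene, Ago4 in FCS/LIF, was higher (1.80 ± 0.35, adjusted p = 0.00292) at a mean of only 31.6 counts, and was named after its values were seen. Drosha, Dgcr8, Dicer1 and the uridylyl transferases Tut4 and Tut7, which tag the precursor bound by Lin28a, were not called in -E-N of either medium.

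A further 20 genes known as let-7 targets were read the same way. Of their 3′ UTRs, 13 of 20 hold a match to the seed (65.0%), and 5 of 19 in the machinery list (26.3%). In -E-N 8 of the 20 were called in FCS/LIF, 6 higher and 2 lower, and 7 in 2i/LIF, 6 of them higher, where 12.4% and 9.06% of all genes were called higher. The list medians were 0.23 and 0.41. In FCS/LIF the largest rises were those of Irs2, an insulin receptor adaptor (1.82 ± 0.12, adjusted p = 1.22e-05), and Arid3a, a DNA-binding factor (1.66 ± 0.16, adjusted p = 8.19e-05), and the falls were those of Ccnd1, a D-type cyclin (-0.85 ± 0.06, adjusted p = 1.33e-05), and Mycn (-0.68 ± 0.05, adjusted p = 2.79e-05). In 2i/LIF Ccnd2, another D-type cyclin, rose by 1.89 ± 0.39 (adjusted p = 0.00213) and Nr6a1, an orphan nuclear receptor, by 1.49 ± 0.27 (adjusted p = 0.000812). Ccnd2 stood higher still after loss of Esrrb alone, at 15.2, 15.9 and 14.5 CPM against 9.89, 8.68 and 7.50 in -E-N. Irs2 holds 1 match to the seed, Arid3a 2 and Nr6a1 8, while Ccnd1, Mycn and Ccnd2 hold 0. The called genes of this list thus moved in both directions, with 6 of 8 higher in FCS/LIF and 6 of 7 in 2i/LIF. The members called in -E-N were 1 in FCS/LIF (Hmga2) and 3 in 2i/LIF, all higher. These are too few to set their directions against those of the list.

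Genes whose pattern was most like each member were sought among 11738 genes across the 20 libraries, after each medium's mean was taken out. These values are descriptions, and the libraries share lines, media and states. Lin28a was most like Lef1 (Pearson's r = 0.963) and Dnmt3b (0.949), both of which were on the formative and primed list. Lin28b was most like Sema3e (0.906) and Cflar (0.898), and Hmga2 like Txnip (0.947) and Ssbp3 (0.934). For Trim71 the nearest were Dhx37 (0.935) and Hmga1 (0.898), for Igf2bp1 Rangap1 (0.880) and Ccdc6 (0.862), for Igf2bp2 Bbs10 (0.851) and Bmf (0.775), and for Igf2bp3 Tmem94 (0.901) and Scrib (0.887). Among the members themselves, Lin28a and Lin28b had r = 0.896 over the 8 FCS/LIF libraries and 0.798 over the 12 2i/LIF libraries, Lin28a and Hmga2 0.771 and 0.610, and Igf2bp1 and Trim71 0.543 and 0.813. For Lin28a and Trim71 the sign differed between the media, with 0.777 in FCS/LIF and -0.27 in 2i/LIF.

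All 7 genes lie on the minus strand of mm10, at chr4:134003330-134018841 (Lin28a), chr10:45376620-45486395 (Lin28b), chr9:114507133-114564369 (Trim71), chr10:120361275-120476469 (Hmga2), chr11:95957163-96005940 (Igf2bp1), chr16:22059009-22163299 (Igf2bp2) and chr6:49085223-49214957 (Igf2bp3). Genes on the opposite strand overlap Lin28a, Trim71, Hmga2, Igf2bp1 and Igf2bp3. The libraries were stranded, but no strand setting for the counting is given in the sources used here, so a share of reads from those partners in the counts was not tested. Promoters of 300 bases (RefSeq, GRCm38.p6, from 250 bases before to 50 after the start) were listed for 6 of the 7 genes, not for Igf2bp1. The cores of the 2 forms of the motif bound by Esrrb and Nr5a2, AAGGTCA and AAGGCCA, were searched on both strands. Neither was found in any of the 6, against 4.72% and 6.20% of all 32851 promoters listed, which says only that these letters are not in these windows.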

How the data were processed

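RNA-seq was analysed in 20 libraries. Per the labels and the methods, libraries were stranded and paired-end, the authors used STAR and RSEM on mm10 (versions not given in the sources used here), and they deposited rounded expected counts and TPM for each gene. The ChIP-seq samples were not analysed here. The 92 spike-in rows held 0 counts and were left out.

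Groups came from the labels. Genes with at least 20 counts in all libraries of a state were kept and tested with edgeR 4.0.16 (R 4.3.3, TMM, quasi-likelihood) within each medium, and over all 20 libraries for comparisons between media, with Benjamini-Hochberg adjustment over all genes tested and calls as defined with the results. CPM are TMM-scaled over the 20 libraries. Alternatives used DESeq2 1.42.0, limma 3.58.1 on log2-scaled TPM (pseudocounts of 1 and 0.1), other filters, thresholds and sample sets, and each library left out. The values of single genes in fits of all 20 libraries or of 2 states alone were added after seeing the data. Scripts were tested on simulated data.

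The deviations of same-numbered replicates correlated at over 0.1 for all 3 numbers in 2i/LIF (0.13 to 0.63), except for -E-N against +E+N (-0.0027 for replicate 2), so the number paired those libraries from the data alone. With 2 numbers in FCS/LIF pairing was not judged. The main fits carried no term for the replicate number in either medium, and fits with that term are given as the replicate block.

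Named genes were the 7 members, Esrrb and Nr5a2, from each list up to 2 called rises and 2 called falls in -E-N with a mean of at least 100 counts, and the 2 genes most like each member. A gene that this rule names is not reported here. The members and lists were chosen with earlier results of these data known. Depths limit precision as the counts given show. The SE of a fold change rests on an estimate of the spread shared by all states in the fit. The SD of a level is that of the libraries of its own group.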

Additional observations from a re-analysis of the deposited data

Results flagged for a closer look

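The response of Lin28a to loss of both factors differed between the media by a test of the difference itself. It was larger in 2i/LIF than in FCS/LIF by 1.93 ± 0.28 on the log2 scale (adjusted p = 0.000112, edgeR's quasi-likelihood test over all 20 libraries), with log2 fold changes of 2.29 in 2i/LIF and 0.33 in FCS/LIF. The starting level in +E+N cells differed too, at a mean of 442 CPM in FCS/LIF and 55.9 CPM in 2i/LIF. Groups of 2 or 3 libraries are too small to look for single outlying libraries by rule.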

How the results depend on the processing

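Of 2338 log2 fold changes of the 7 genes recomputed under alternatives, 2263 kept their side of the threshold, 37 gained a call and 38 lost it. No called value changed sign, and 93 values that were not called did.

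The number of members called moved by more than 1.5 times as follows. With DESeq2 it was 1 in 2i/LIF -E, 2 in 2i/LIF -N, 1 for the medium difference of -E and 2 for that of -E-N. Without the count filter it was 1 in 2i/LIF -E, 2 for -E-N against -N and against -E in 2i/LIF, and 1, 1 and 3 for the medium differences of -E, -N and -E-N. On log2(TPM + 1) with limma it was 1 in FCS/LIF -E, 2 in FCS/LIF -E-N, 1 in 2i/LIF -E-N and 2 for the medium difference of -E-N, and on log2(TPM + 0.1) it was 1, 2 and 1 in the first 3 of these. At an adjusted p under 0.05 it was 1 in 2i/LIF -E, 2 in 2i/LIF -N, 2 for -E-N against -N and against -E in 2i/LIF, and 1 and 2 for the medium differences of -E and -E-N. Without a fold limit it was 4 in FCS/LIF -E-N and 2 for -E-N against -N there. With all 20 libraries in the fit it was 1 in FCS/LIF -E, 0 in FCS/LIF -E-N, 0 for -E-N against -N there, 2 in 2i/LIF -N and 2 for -E-N against -N in 2i/LIF, and with the 2 compared states alone 1 in FCS/LIF -E and 0 in 2i/LIF -N. The cause of these shifts was not tested.

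With the replicate block it was 1 in 2i/LIF -E, 2 for -E-N against -N and against -E in 2i/LIF, and 2, 1 and 2 for the medium differences of -E, -N and -E-N (Igf2bp1 and Igf2bp3, Lin28a, and Lin28a and Igf2bp3). It changed no call of the 7 genes in FCS/LIF or in 2i/LIF -N and -E-N against +E+N.

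Leaving out each library in turn, the number ran from 0 to 3 in FCS/LIF -E, 1 to 2 in FCS/LIF -E-N, 0 to 1 in 2i/LIF -E, 0 to 1 in 2i/LIF -N, 2 to 3 in 2i/LIF -E-N, 1 to 2 for -E-N against -N and against -E in 2i/LIF, 5 to 6 between media, and 0 to 1, 0 to 1 and 1 to 2 for the medium differences of -E, -N and -E-N. It was always 1 for -E-N against -N in FCS/LIF, and always 0 for -N, for -E-N against -E and for the additivity test in FCS/LIF and for the additivity test in 2i/LIF. A state left with 1 library is assumed to vary like the others.

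The count of all genes called, with its range over all settings and left-out libraries, was 901 (314 to 1631) for FCS/LIF -E against +E+N, 27 (0 to 548) for FCS/LIF -N against +E+N, 2934 (1812 to 4795) for FCS/LIF -E-N against +E+N, 1573 (679 to 2568) for FCS/LIF -E-N against -N, 790 (84 to 1571) for FCS/LIF -E-N against -E, 5 (0 to 242) for FCS/LIF additivity test, 223 (87 to 596) for 2i/LIF -E against +E+N, 524 (243 to 1115) for 2i/LIF -N against +E+N, 970 (510 to 1622) for 2i/LIF -E-N against -N, 44 (7 to 324) for 2i/LIF additivity test, 171 (31 to 728) for medium difference of the -E response, 120 (47 to 809) for medium difference of the -N response and 2136 (1220 to 3821) for medium difference of the -E-N response. The let-7 match was found in 7 of 7 genes with the 8-base form and with the 3′ UTR of every coding transcript. With 2 or 3 libraries per state, changes near 1.5-fold lie at the limit of what could be called.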
